A study of Mus musculus with 12 samples.

Results

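The 9 genes described here encode glutathione transferases (Gsta4, Gstm1, Gstm2, Gstm5, Gsto1, Gstp1 and Gstt1) and glutathione peroxidases (Gpx1 and Gpx3). They were chosen by name from the 17536 genes of the deposited table, and the choice used the measured values, because Gsta4 had a higher mean in superficial zone (SFZ) cells of R3-cKO mice than of R3-Cntl mice. All 9 were found, each in 1 row. The table holds RNA-seq of chondrocytes from the SFZ and the deep zone (DZ) of articular cartilage of 5-day-old mice. The labels give C57BL/6 as the strain, and the study states a C57BL/6J background. R3-Cntl mice carry Runx3 fl/fl, and R3-cKO mice carry Col2a1-Cre together with Runx3 fl/fl, so both genotypes share the floxed allele and differ by the Cre, which a cartilage collagen promoter drives in chondrocytes. Each genotype and zone has 3 libraries, which gives 12 in all. The SFZ and DZ fractions were taken one after the other by enzyme digestion of cartilage, and not by a sort on a surface marker, and the methods describe growth of such cells on dishes as a single layer. In such bulk RNA, fewer cells of a type and less RNA per cell cannot be told apart. A supplement of the study names 3 individual littermates per genotype, while the labels tie no library to a mouse, so p-values measure the spread between these libraries.

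Glutathione transferases join the thiol of glutathione to reactive electrophiles, which detoxifies products of lipid oxidation and foreign compounds. The alpha class enzyme Gsta4 is known for its activity on hydroxynonenal, an aldehyde formed from oxidised lipids. Gstm1, Gstm2 and Gstm5 are of the mu class, Gstp1 of the pi class, Gstt1 of the theta class, and Gsto1 of the omega class, whose members reduce disulfides and dehydroascorbate. Glutathione peroxidases reduce hydrogen peroxide and lipid peroxides with glutathione as the electron donor. Gpx1 acts in the cytosol and Gpx3 is secreted, and both carry selenocysteine at the active site. Many transferase genes are known targets of Nrf2, the transcription factor encoded by Nfe2l2, which Keap1 holds inactive.

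The 3 mu class genes lie within 1 cluster on chromosome 3. In mm9, the build to which the reads were mapped, Gstm5 (Entrez gene 14866) is at chr3:107698739-107701604 on the plus strand, Gstm2 (14863) at chr3:107784620-107789371 on the minus strand and Gstm1 (14862) at chr3:107815173-107820891 on the minus strand. The end of Gstm5 and the start of Gstm2 are 83016 bp apart, and the end of Gstm2 and the start of Gstm1 are 25802 bp apart. Gsta4 (14860) is at chr9:78039773-78057155 on the plus strand, and Gpx1 (14775) on the same chromosome at chr9:108241607-108242671, also on the plus strand. Gstt1 (14871) is at chr10:75246558-75261329 on the minus strand, and Gpx3 (14778) at chr11:54715955-54723879 on the plus strand. Gstp1 (14870) is at chr19:4035411-4037921 on the minus strand, and Gsto1 (14873) at chr19:47929460-47939280 on the plus strand. These spans are the gene models of the GENCODE M1 annotation. Of the 100-base windows of the longest coding transcript, 57.3% in Gstp1 were also found in transcripts of other genes, most in Gstp2, and 1.68% in Gstm1, while the other 7 genes shared 0 windows. Reads could therefore be split between Gstp1 and its neighbour Gstp2, and the values of both genes carry that uncertainty.

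Promoter sequences, from 250 bases before to 50 bases after the RefSeq start, were held for 8 of the 9 genes. Gsta4 has no entry. The RefSeq table is of a later build, and each sequence was placed on mm9 by its single exact match. The following promoters of the mu class cluster are shown because Gstm1 and Gstm2 differed between zones and Gstm5 did not pass the same test, and that of Gsto1 because it holds 2 matches to a Runx motif. Capitals mark TGACNNNGC, the core of the antioxidant response element bound by Nrf2, or TGTGGT and TGCGGT, the consensus that the study gives for the Runx family, on either strand. No matches of these motifs overlapped in the promoters shown.
Gstm5, chr3:107698522-107698821, plus strand: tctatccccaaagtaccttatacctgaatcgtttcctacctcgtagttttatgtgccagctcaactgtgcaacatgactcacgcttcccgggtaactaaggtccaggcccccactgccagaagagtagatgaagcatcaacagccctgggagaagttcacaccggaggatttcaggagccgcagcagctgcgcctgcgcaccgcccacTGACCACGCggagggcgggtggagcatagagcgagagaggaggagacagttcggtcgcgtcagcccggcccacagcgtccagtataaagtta
Gstm2, chr3:107789289-107789588, minus strand: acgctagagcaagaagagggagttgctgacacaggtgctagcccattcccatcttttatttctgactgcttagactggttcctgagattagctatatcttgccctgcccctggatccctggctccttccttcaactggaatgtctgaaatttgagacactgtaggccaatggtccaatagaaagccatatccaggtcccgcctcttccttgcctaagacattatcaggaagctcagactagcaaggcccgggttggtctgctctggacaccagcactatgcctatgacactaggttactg
Gstm1, chr3:107820687-107820986, minus strand: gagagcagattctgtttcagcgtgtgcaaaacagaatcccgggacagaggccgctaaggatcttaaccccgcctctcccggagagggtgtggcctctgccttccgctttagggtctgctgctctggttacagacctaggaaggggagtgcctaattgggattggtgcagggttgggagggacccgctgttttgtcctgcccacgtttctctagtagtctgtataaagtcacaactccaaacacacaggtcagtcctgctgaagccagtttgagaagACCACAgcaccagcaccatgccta
Gsto1, chr19:47929213-47929512, plus strand: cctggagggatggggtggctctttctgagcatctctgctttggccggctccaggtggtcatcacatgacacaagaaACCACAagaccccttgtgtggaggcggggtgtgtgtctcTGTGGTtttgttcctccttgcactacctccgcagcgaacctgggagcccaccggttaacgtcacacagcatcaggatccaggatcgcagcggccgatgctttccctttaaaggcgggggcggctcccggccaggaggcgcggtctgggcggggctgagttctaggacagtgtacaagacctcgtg

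TGACNNNGC was found in 1 of the 8 genes, Gstm5, at position 209 of its 300 bases, and in 12.4% of the 32851 promoters of the table. TGTGGT or TGCGGT was found in 2 of the 8, Gstm1 and Gsto1, and in 22.4% of all promoters. In Gstm1 the match is to TGTGGT on the opposite strand at position 277, after the start site. The RefSeq start of this promoter, the one shown, lies 155 bases inside the gene from its GENCODE start. The other RefSeq start of Gstm1 is at the GENCODE start, and its promoter held no match to these motifs. In Gsto1 the matches to TGTGGT are at positions 77 and 116. The promoters of Gstm2, Gstp1, Gstt1, Gpx1 and Gpx3 held no match to TGACNNNGC, TGTGGT or TGCGGT in this window. The motif that the study found in its Runx3 ChIP-seq, TG(T/C)GG(T/C), also allows C as the last base. That wider form was not searched here, so its absence is not shown for any promoter. The RefSeq starts used for Gpx1, Gstt1 and Gpx3 lie 196, 853 and 401 bases from the GENCODE starts of these genes.

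The deposited values are FPKM on a linear scale. Low values of genes with a single transcript fell in steps, from which 1 fragment on a transcript of 1 kb was worth about 0.0325 to 0.038 FPKM in the 12 libraries. This step can hold the scaling of the values as well as the depth, so depth itself was not measured. By the size of the step, the lowest value of Gstt1 rested on about 8.59 fragments, that of Gsta4 on 13.0 and that of Gstp1 on 3213. Runx3 itself was not lower in the libraries labelled R3-cKO. Its FPKM in the SFZ was 10.73, 5.98 and 6.65 with R3-Cntl and 11.83, 9.07 and 3.42 with R3-cKO. In the DZ it was 12.67, 12.65 and 7.66 with R3-Cntl and 15.95, 12.66 and 8.14 with R3-cKO, so that the genotypes overlapped in each zone. A value per gene does not show the loss of a floxed part on its own, and the genotypes below are those of the labels. The fractions held markers of chondrocytes and of other cells. Col2a1, the main cartilage collagen, averaged 5924 FPKM in SFZ and 16536 FPKM in DZ libraries, while 8 tendon and synovial fibroblast markers summed to 2325 to 6293 FPKM in SFZ and to 61.7 to 1257 FPKM in DZ libraries. Prg4, the superficial zone lubricin gene, averaged 8.22 ± 7.34 FPKM (SD, n = 6) in SFZ and 2.21 ± 1.75 FPKM (SD, n = 6) in DZ libraries. In the SFZ, Prg4 was at 22.24, 8.38 and 7.13 FPKM with R3-Cntl and at 6.95, 2.47 and 2.13 FPKM with R3-cKO, so that the genotypes did not overlap although those of Runx3 did. The genotypes did not overlap in the SFZ for 2.4% of all genes tested, in either direction, and 0 genes were called there. In the DZ, Prg4 was at 1.39, 1.22 and 1.47 FPKM with R3-Cntl and at 5.72, 1.32 and 2.14 FPKM with R3-cKO. R3-Cntl SFZ library 2 and R3-cKO SFZ library 3 stood apart with the highest fibroblast marker sums, 4903 and 6293 FPKM. Transcripts of 4 Y-linked genes were nearly missing from libraries 2 and 3 of R3-cKO in each zone, where they summed to at most 0.06 FPKM, and summed to at least 12.1 FPKM in the other 8 libraries. The labels give no sex. Gstm1 and Gstm2, called between zones below, were also called in those 8 libraries alone, an alternative chosen after seeing the data in which the genotypes no longer weigh equally.

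Gstp1 was the most abundant of the 9 genes in both zones per unit of transcript length. It averaged 235 ± 43.0 FPKM (SD, n = 6) in SFZ and 189 ± 17.4 FPKM (SD, n = 6) in DZ libraries, and its lowest library lay above the highest library of Gpx1, the next in order, in each zone, although 1 SFZ library of Gpx3 reached 271.68 FPKM. Gpx1 averaged 96.0 FPKM in SFZ and 87.5 FPKM in DZ libraries. In the SFZ, Gpx3, Gsto1, Gstm1 and Gstm5 followed with means of 75.1, 73.5, 72.6 and 57.2 FPKM, and the ranges of neighbours in this order overlapped. In the DZ, the order was Gsto1, Gstm5, Gpx3 and Gstm1 with means of 64.2, 54.2, 54.0 and 22.2 FPKM, again with overlap between neighbours. Gstm2, Gsta4 and Gstt1 were the lowest in both zones, with means of 16.5, 11.6 and 3.53 FPKM in the SFZ and 3.56, 1.44 and 0.733 FPKM in the DZ. The place of Gpx3 in the SFZ rested on R3-cKO library 3, as its mean was the sixth in order with R3-Cntl, at 38.7 FPKM, and the second with R3-cKO, at 112 FPKM. Gstm1 was the fourth in the SFZ and the sixth in the DZ of each genotype.

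**Figure D1:**
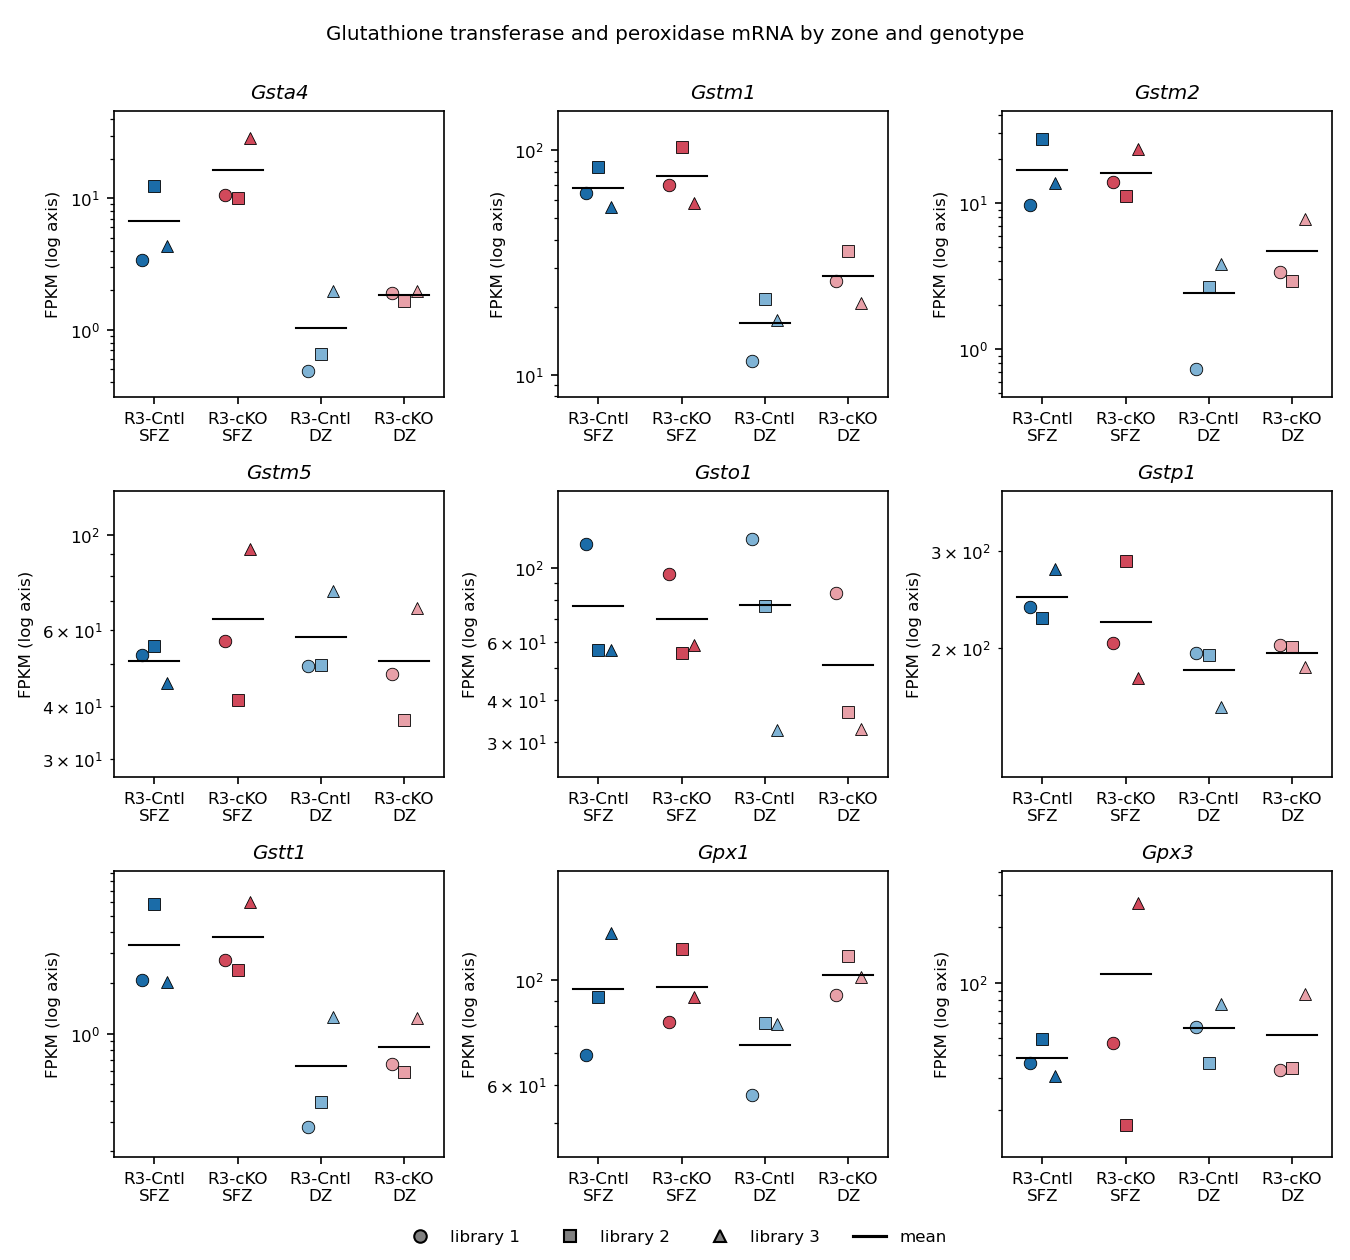
FPKM of each gene on a log axis in the 12 libraries, by zone and genotype. Points are libraries, with the number of the library as the shape, and horizontal lines are means. All 6 SFZ libraries lie above all 6 DZ libraries for Gsta4, Gstm1, Gstm2 and Gstt1, and the zones overlap for the other 5 genes.

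The comparison of zones asked which transferases and peroxidases differ between superficial and deep cells, over both genotypes. Of the 9 genes, the transferases Gstm1 and Gstm2 reached 1 FPKM in at least 3 libraries of each zone and were lower in DZ cells at an adjusted p under 0.05. Of the others, 0 were higher and 5 did not pass. Gsta4 and Gstt1 were also called lower, but both are set apart. The SFZ values of Gsta4 were used in its choice, and Gstt1 passed the filter on low values only through its SFZ libraries. Among all 11765 genes tested by limma with genotype as a covariate, 23.2% passed the threshold, 18.9% as lower and 4.3% as higher in DZ cells. The count of Gstm1 and Gstm2 among the 9 genes is near the 18.9% of all genes called lower. Gsta4, Gstm1 and Gstm2 had zones that did not overlap, as had Gstt1, and 9.71% of all genes were lower in DZ cells without overlap. The median log2 fold change of all genes was -0.14, and 506 of the called genes were higher and 2219 lower in DZ cells. With quantile normalization this median was 0.03 and the split 1237 to 915, and with median-of-ratios size factors it was 0.00 and the split 1053 to 1088. All 4 remained called under both scalings. Differences are on the scale of log2(FPKM + 1), where the change of a gene near 0 is understated. The SFZ libraries by which Gsta4 was chosen enter this comparison too, as the mean over both genotypes, weighted equally. This is a different contrast from the difference between genotypes that the choice used, but it rests on the same SFZ values.

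Gsta4 was at 3.40, 12.48 and 4.30 FPKM in SFZ libraries 1 to 3 of R3-Cntl and at 10.59, 10.11 and 28.81 FPKM in those of R3-cKO. In the DZ it was at 0.49, 0.65 and 1.97 FPKM with R3-Cntl and at 1.91, 1.67 and 1.97 FPKM with R3-cKO. The highest DZ library was below the lowest SFZ library. Mean Gsta4 was 8.05-fold higher in the SFZ, and the log2 fold change from SFZ to DZ was -2.13 (SE 0.33, adjusted p = 0.00231), or -1.99 relative to the median of all genes. The exact two-sided permutation test of zone within genotype gave p = 0.005 over 400 arrangements, the smallest it can give. Both tests use the SFZ values from which Gsta4 was chosen. They describe this gene and are no support for a zone effect of the group.

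Gstm1 was the transferase with the lowest p in this comparison. It was at 64.29, 84.22 and 55.66 FPKM in SFZ libraries of R3-Cntl and at 70.21, 102.93 and 58.13 FPKM in those of R3-cKO. DZ libraries were at 11.50, 21.70 and 17.55 FPKM with R3-Cntl and at 26.01, 35.54 and 20.87 FPKM with R3-cKO. Libraries 2 were the highest of each group, and no DZ library reached the lowest SFZ library. Mean Gstm1 was 3.27-fold higher in the SFZ, with a log2 fold change of -1.71 (SE 0.21, adjusted p = 0.000703) and -1.57 relative to the median of all genes (exact permutation p = 0.005).

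Its neighbour Gstm2 was at 9.68, 27.36 and 13.74 FPKM in SFZ libraries of R3-Cntl and at 14.03, 11.13 and 23.31 FPKM in those of R3-cKO. In the DZ it was at 0.73, 2.66 and 3.85 FPKM with R3-Cntl and at 3.35, 2.94 and 7.81 FPKM with R3-cKO. The gap between zones was small, from 7.81 to 9.68 FPKM, but no library crossed it. Mean Gstm2 was 4.65-fold higher in the SFZ, with a log2 fold change of -2.01 (SE 0.35, adjusted p = 0.00338) and -1.87 relative to the median of all genes (exact permutation p = 0.005).

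Gstt1, the theta class gene, was the lowest of the 9. It was at 2.09, 5.86 and 2.03 FPKM in SFZ libraries of R3-Cntl and at 2.74, 2.39 and 6.05 FPKM in those of R3-cKO. In the DZ it was at 0.28, 0.39 and 1.25 FPKM with R3-Cntl and at 0.66, 0.59 and 1.23 FPKM with R3-cKO. Only 2 of the 6 DZ libraries reached 1 FPKM, so Gstt1 entered the test through its SFZ libraries, where it is high, and its call is no support for a zone effect of the group. Without a filter the adjusted p was 0.00904. Mean Gstt1 was 4.81-fold higher in the SFZ, with a log2 fold change of -1.32 (SE 0.26, adjusted p = 0.00554) and -1.18 relative to the median of all genes (exact permutation p = 0.005).

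Without R3-Cntl SFZ library 2 and R3-cKO SFZ library 3, which held the 2 highest values of Gsta4, Gstm2 and Gstt1, Gstm1 and Gstm2 were still called. So were Gsta4 and Gstt1, which remain set apart as above and are no support here either. The log2 fold changes were then -1.66 for Gsta4, -1.72 for Gstm1, -1.67 for Gstm2 and -0.96 for Gstt1, with adjusted p-values of 0.00289, 0.00228, 0.018 and 0.0126, while the number of called genes in the whole table was 986. This alternative was chosen after seeing the data.

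**Figure D2:**
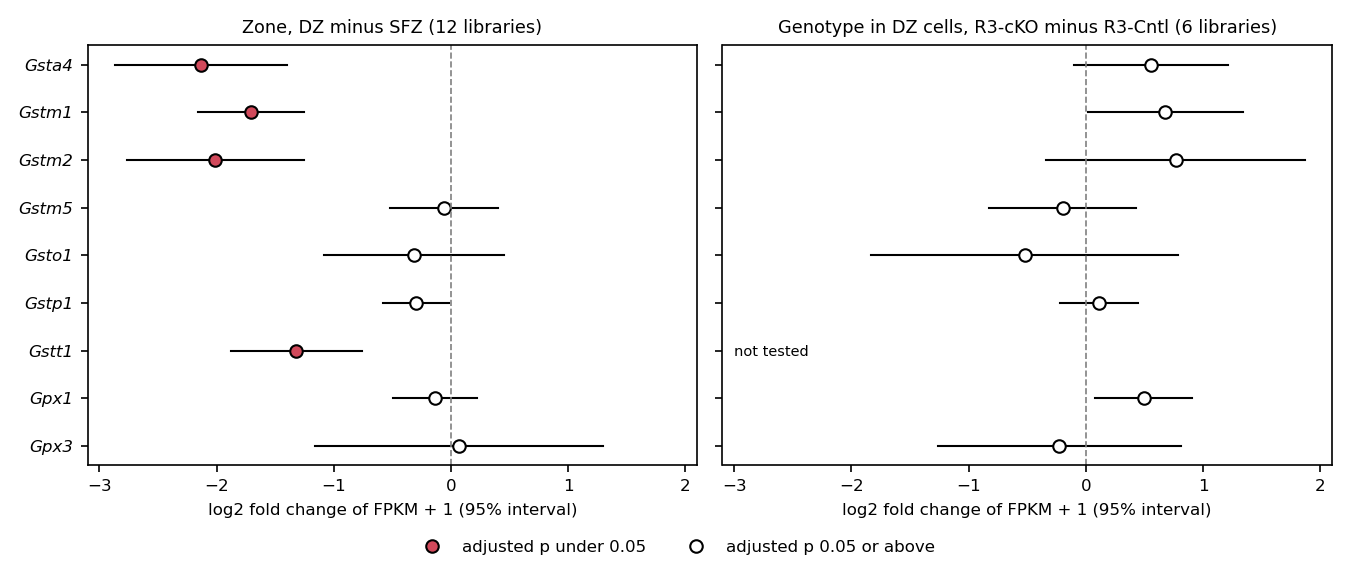
Log2 fold change with 95% interval of each gene between zones over both genotypes and between genotypes in DZ cells. Filled points passed an adjusted p under 0.05. The 4 filled points are Gsta4, Gstm1, Gstm2 and Gstt1 in the zone comparison, at -2.13, -1.71, -2.01 and -1.32, and no gene is filled in the genotype comparison. Gsta4 was chosen by its SFZ values and Gstt1 passed the filter only through the SFZ, so both are set apart.

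The other 3 transferases did not pass the test between zones. Gstm5 was at 41.25 to 92.71 FPKM in SFZ and at 37.09 to 74.08 FPKM in DZ libraries, with a log2 fold change of -0.06 and a 95% interval from -0.52 to 0.40. Library 3 was the highest of R3-cKO SFZ at 92.71 FPKM, of R3-Cntl DZ at 74.08 FPKM and of R3-cKO DZ at 67.65 FPKM, and the lowest of R3-Cntl SFZ at 45.21 FPKM. Gstm5 thus differed from its cluster neighbours Gstm1 and Gstm2 in the zone comparison by its estimate, although the difference between genes was not tested. Its sign changed under quantile normalization and median-of-ratios size factors.

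Gsto1 was at 117.53, 56.65 and 56.63 FPKM in R3-Cntl SFZ and at 122.32, 76.80 and 32.59 FPKM in R3-Cntl DZ libraries. In R3-cKO it was at 96.02, 55.26 and 58.65 FPKM in SFZ and at 83.81, 36.97 and 32.70 FPKM in DZ libraries. Library 1 was the highest in each of the 4 groups. The log2 fold change from SFZ to DZ was -0.31 (SE 0.35, adjusted p = 0.549), with a 95% interval from -1.08 to 0.46.

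Gstp1 was at 226.52 to 279.03 FPKM in R3-Cntl SFZ, at 176.26 to 288.14 FPKM in R3-cKO SFZ, at 155.75 to 195.61 FPKM in R3-Cntl DZ and at 184.74 to 202.65 FPKM in R3-cKO DZ libraries. The zones did not overlap in R3-Cntl libraries and overlapped in R3-cKO libraries through library 3. The log2 fold change was -0.30 (SE 0.13, adjusted p = 0.11, exact permutation p = 0.035). Without R3-cKO SFZ library 3 it was -0.38 with an adjusted p of 0.0404. Relative to the median of all genes the change was -0.16.

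Both peroxidases overlapped between zones. Gpx1 was at 69.56, 92.04 and 125.11 FPKM in SFZ libraries of R3-Cntl and at 81.38, 116.19 and 91.85 FPKM in those of R3-cKO, with a log2 fold change from SFZ to DZ of -0.14 (95% interval from -0.50 to 0.22, adjusted p = 0.58), which equals the median of all genes at this rounding and turns positive, at 0.027, with median-of-ratios size factors. Gpx3, the secreted enzyme, was at 36.45, 48.97 and 30.66 FPKM in SFZ libraries of R3-Cntl and at 46.46, 16.57 and 271.68 FPKM in those of R3-cKO. Its DZ libraries were at 57.45, 36.37 and 76.29 FPKM with R3-Cntl and at 33.20, 34.04 and 86.94 FPKM with R3-cKO. The lowest and the highest value of Gpx3 in the study were thus in the same group of 3. The log2 fold change was 0.07 with a 95% interval from -1.16 to 1.29 (adjusted p = 0.943), which includes 2-fold differences in either direction. Without the 2 SFZ libraries of high fibroblast marker level it was 0.70 (adjusted p = 0.242).

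Within each genotype, the zone effect was fitted on 6 libraries, and Gsta4 was left untested there because its SFZ values were used in its choice. In R3-Cntl cells, 1 of the 8 tested genes, Gstm1, passed with a log2 fold change of -1.97 (SE 0.25, adjusted p = 0.048), against 1.24% of 11336 genes. Gstm2 was at -2.39 (adjusted p = 0.0616) and Gstt1 at -1.33 (adjusted p = 0.0992). In this fit of 6 libraries Gstm2 and Gstt1 passed the filter only through the SFZ, with 2 and 1 of the DZ libraries at 1 FPKM. The call of Gstm1 was lost without R3-Cntl SFZ library 2 (adjusted p = 0.228) or 3 (0.0938) and without R3-Cntl DZ library 1 (0.136), 2 (0.101) or 3 (0.07), and also under both other scalings and both other filters. Over all alternatives its adjusted p ran from 0.00982 to 0.228. In R3-cKO cells 0 of the 8 passed, against 0.0176% of 11336 genes. Gstm1, Gstm2 and Gstt1 were at -1.45, -1.63 and -1.31 there, with adjusted p-values of 0.122, 0.182 and 0.183 and unadjusted p-values of 0.00162, 0.00523 and 0.00543. With the library number as a block, the adjusted p-values of Gstm1 and Gstm2 became 0.027 and 0.0284 in R3-cKO cells, where the numbers paired the libraries. That of Gstt1 became 0.0398, but Gstt1 reached 1 FPKM in only 1 R3-cKO DZ library and passed the filter through the SFZ. The SFZ libraries were 5.59-, 3.88- and 3.17-fold above the DZ libraries of the same number for Gstm1 in R3-Cntl mice and 2.70-, 2.90- and 2.79-fold in R3-cKO mice. The ratios of the 3 numbers were close to each other in R3-cKO mice, and the difference between genotypes was not tested. Of the genes at 1 FPKM or more in all 6 libraries, Gstm1 was higher in each SFZ library than in any DZ library in both genotypes, Gstm2 in R3-cKO cells and Gstp1 in R3-Cntl cells. Gsta4, left untested here, was also without overlap in R3-cKO cells. Zones did not overlap in this direction for 26.5% of all genes tested in R3-Cntl and 16.8% in R3-cKO cells. These shares are not limited to genes at 1 FPKM in all 6 libraries.

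Between genotypes in SFZ cells, values are given as a description, since this contrast was used in the choice of the genes. Mean Gsta4 was 6.73 ± 5.00 FPKM (SD, n = 3) with R3-Cntl and 16.5 ± 10.7 FPKM (SD, n = 3) in R3-cKO SFZ libraries, a ratio of 2.45. The log2 fold change was 1.20 and ran from 0.74 to 1.70 when each library was left out in turn. R3-Cntl library 2, at 12.48 FPKM, was above R3-cKO libraries 1 and 2, so the genotypes overlapped. Mean Gpx3 had a ratio of 2.88, which rested on R3-cKO library 3, the highest at 271.68 FPKM. Without R3-cKO library 3 the fitted difference of Gpx3 was negative, at -0.43, against 0.65 with all libraries. The log2 fold changes of the other 7 genes were between -0.18 for Gstp1 and 0.24 for Gstm5. The genotypes overlapped for all 9 genes, and of 11537 genes 2.4% did not overlap and 0% were called.

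Between genotypes in DZ cells, which the choice did not use, the question was whether the libraries labelled R3-cKO differ in these genes. Of the 9 genes, 8 reached 1 FPKM in at least 3 of the 6 libraries and were tested, and 0 passed. Of all 11091 genes tested by limma 0 passed either, a background of 0%. At an unadjusted p under 0.05 were 404 genes, or 3.64%, and 2.5% of all genes were at such a p and higher in the libraries labelled R3-cKO, among them Gpx1 and Gstm1. Gpx1 was at 57.18, 81.22 and 80.53 FPKM in the DZ with R3-Cntl and at 92.82, 112.03 and 101.34 FPKM with R3-cKO. Its genotypes did not overlap, which was so for 5.26% of genes in this direction. The log2 fold change was 0.49 (SE 0.17, unadjusted p = 0.0267, adjusted p = 0.999), and the exact permutation p was 0.1, the smallest that 3 against 3 libraries allow. Gstm1 averaged 16.9 ± 5.13 FPKM (SD, n = 3) with R3-Cntl and 27.5 ± 7.44 FPKM (SD, n = 3) in R3-cKO DZ libraries, with a log2 fold change of 0.68 (SE 0.28, unadjusted p = 0.0453, adjusted p = 0.999).

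Gsta4 averaged 1.04 ± 0.812 FPKM (SD, n = 3) with R3-Cntl and 1.85 ± 0.159 FPKM (SD, n = 3) in R3-cKO DZ libraries. The difference was 0.55 on the log2 scale, with a 95% interval from -0.10 to 1.21, and both genotypes held a library at 1.97 FPKM. Only 1 R3-Cntl DZ library of Gsta4 reached 1 FPKM. Gsta4 thus passed the filter only through R3-cKO libraries, where its mean is higher, and its difference is no support for a genotype effect. Gstm2 was at 0.77 (95% interval from -0.34 to 1.87) and Gsto1 at -0.52 (95% interval from -1.83 to 0.79). Gstm2 reached 1 FPKM in only 2 R3-Cntl DZ libraries, so it too passed the filter only through R3-cKO libraries. With a library left out in turn, the difference ran from 0.34 to 1.08 for Gstm2, from -1.04 to -0.10 for Gsto1 and from 0.44 to 0.87 for Gstm1, and the value nearest to 0 came without R3-Cntl DZ library 1 for each of these 3 genes. Gstp1 was at 0.11, Gstm5 at -0.20 and Gpx3 at -0.23. Gstt1 was not tested and averaged 0.640 FPKM with R3-Cntl and 0.827 FPKM with R3-cKO in the DZ. The library numbers paired the DZ libraries. With the number as a block 0 genes were called and 1830 had an unadjusted p under 0.05, and the adjusted p-values of Gpx1, Gstm1, Gstm2 and Gsta4 were 0.173, 0.209, 0.247 and 0.294. R3-cKO DZ libraries 2 and 3 were those without Y-linked transcripts. With the other libraries alone, which leave 1 R3-cKO DZ library, the estimate of Gsto1 turned positive.

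Across the 12 libraries, Gsta4, Gstm2 and Gstt1 were among the closest pairs of the 9 genes. Pearson's r of log2(FPKM + 1) was 0.95 between Gsta4 and Gstt1, 0.95 between Gstm2 and Gstt1 and 0.90 between Gsta4 and Gstm2. These values are descriptions, as the 12 points share 2 zones and 2 genotypes. After the mean of each group was subtracted, r was 0.97, 0.87 and 0.80 for the same pairs. R3-Cntl SFZ library 2 and R3-cKO SFZ library 3 held the highest values of Gsta4, Gstm2 and Gstt1. The r between genes without these libraries was not computed. Gstm1 was at 0.82 with Gsta4 over all libraries and at 0.01 after the group means were subtracted. Gstm5 and Gpx3 were at 0.90 and 0.91, and Gstp1 was opposite to both after subtraction, at -0.86 with Gstm5 and -0.86 with Gpx3.

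**Figure D3:**
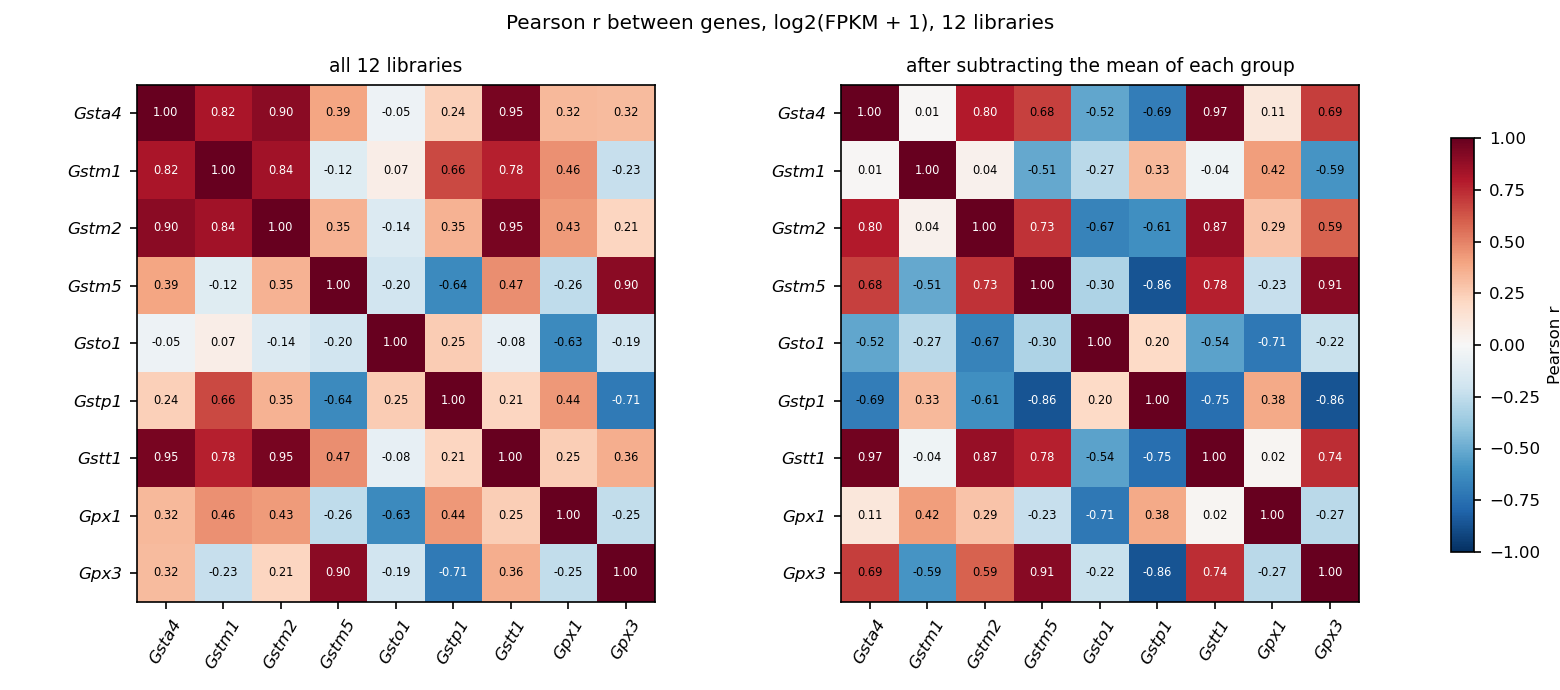
Pearson's r of log2(FPKM + 1) between the 9 genes over 12 libraries, as measured and after the mean of each of the 4 groups was subtracted. Colour gives r from -1 to 1. Gsta4, Gstm2 and Gstt1 stay together in both panels, at 0.80 to 0.97 after subtraction, whereas Gstm1 leaves them. The highest values of these 3 genes were in R3-Cntl SFZ library 2 and R3-cKO SFZ library 3, and r without these libraries was not computed.

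Among the 11765 genes tested in the zone comparison, the 5 whose pattern was most like that of Gsta4 were Trappc3, Zdhhc17, Ilvbl, C1qtnf5 and Cmtm3, with r from 0.98 to 0.96 over 12 libraries. The gene most like Gstm1 was Uvrag (0.98), that most like Gstm2 was Ehmt2 (0.98), and that most like Gstt1 was Apol9a (0.98). For Gstm5 it was Fbxl16 (0.98), for Gsto1 Car6 (0.95), for Gstp1 Babam1 (0.93), for Gpx1 Masp1 (0.97) and for Gpx3 Srgn (0.96). None of the 9 genes was the nearest to another.

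The 2 SFZ libraries with the highest Gsta4, Gstm2 and Gstt1 also held the highest sums of fibroblast, osteoblast and superficial zone markers. The sum of the 8 tendon and synovial fibroblast markers was 2507, 4903 and 2696 FPKM in R3-Cntl SFZ, 2553, 2325 and 6293 FPKM in R3-cKO SFZ, 61.7, 362 and 1257 FPKM in R3-Cntl DZ and 118, 387 and 976 FPKM in R3-cKO DZ libraries. All 8 markers were called lower in DZ cells, against 18.9% of all genes, with a median log2 fold change of -2.92, although 1 of the 8 passed the filter only through the SFZ. Without the 2 SFZ libraries that stood apart, 808 of 11550 genes were called lower and 178 higher, and 4 of the 8 markers were called, with a median of -2.57. None was at 0 in all libraries. Over the 6 SFZ libraries alone, r of the log2 sum with log2(FPKM + 1) was 0.95 for Gstt1, 0.91 for Gstm2 and 0.76 for Gsta4, and over the 6 DZ libraries 0.83, 0.79 and 0.59. For Gstm1 these values were -0.23 and 0.28. The SFZ values rest on R3-Cntl library 2 and R3-cKO library 3, as r over the other 4 SFZ libraries was -0.34 for Gstt1, 0.57 for Gstm2, -0.51 for Gsta4 and -0.95 for Gstm1. Gpx3 and Gstm5, which were not called between zones, were at 0.85 and 0.82 in the SFZ and at 0.50 and 0.59 in the DZ. Macrophage markers summed to 7.15 to 168 FPKM in SFZ and to 3.71 to 22.9 FPKM in DZ libraries, but only 2 of the 7 markers tested reached 1 FPKM in 3 or more DZ libraries, so that the others entered the test through the SFZ and their calls are not counted here. Without those 2 libraries 0 of 4 tested were called. Osteoblast markers, a list that shares Col1a1 with the fibroblast list, summed to 2247, 4184 and 2774 FPKM in R3-Cntl SFZ, to 2370, 2115 and 5123 FPKM in R3-cKO SFZ and to 395 to 2012 FPKM in DZ libraries. Superficial zone markers summed to 412, 686 and 354 FPKM in R3-Cntl SFZ, to 415, 276 and 1065 FPKM in R3-cKO SFZ and to 314 to 626 FPKM in DZ libraries. Over the SFZ libraries, r with the osteoblast sum was 0.92 for Gstt1, 0.92 for Gstm2, 0.72 for Gsta4 and -0.30 for Gstm1, and with the superficial zone sum it was 0.90, 0.83 and 0.72 for the first 3 genes. Without those 2 libraries these values became -0.38, 0.67, -0.41 and -0.82 for the osteoblast sum and 0.06, 0.11 and -0.38 for the superficial zone sum. With the superficial zone sum, Gpx3 and Gstm5 were at 0.94 and 0.92 over the SFZ and at 0.94 and 0.94 over the DZ libraries. Without those 2 SFZ libraries they were at 0.97 and 0.94. Of 7 tested superficial zone markers, 5 of which reached 1 FPKM in 3 or more DZ libraries, 3 were lower, and of 6 tested osteoblast markers 2 were lower in DZ cells. Erythroid markers summed to at most 0.3 FPKM, endothelial markers to at most 5.87 FPKM and keratinocyte markers to at most 6.99 FPKM. Skeletal muscle markers were at 127 FPKM in R3-Cntl SFZ library 2 and at 5.52 to 20.3 FPKM in the other libraries, and adipocyte markers were at 7.61 to 60.8 FPKM, the highest in that same library. Chondrocyte markers summed to 4818 to 14084 FPKM in SFZ and to 15254 to 33897 FPKM in DZ libraries. Of these markers, 9 of 9 were called higher in DZ cells, against 4.3% of all genes, with a median of 1.57. Without the 2 libraries 5 of 9 were called, with a median of 1.18. The median of 1.57 is the value of Col2a1, which was at 0.77 with quantile normalization and not called (adjusted p = 0.158). With median-of-ratios size factors Col2a1 was at 1.74 and called (adjusted p = 0.00458). Over all 12 libraries r with the chondrocyte sum was -0.89 for Gsta4, -0.89 for Gstm1, -0.87 for Gstm2 and -0.88 for Gstt1. Over the SFZ libraries it was -0.72, -0.25, -0.84 and -0.83 for these genes, and over the DZ libraries -0.29, -0.94, -0.22 and 0.08. Over the 4 SFZ libraries other than the 2 that stood apart it was -0.42, -0.55, -0.21 and 0.03. The part of these cell types in the zone effect was not tested.

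**Figure D4:**
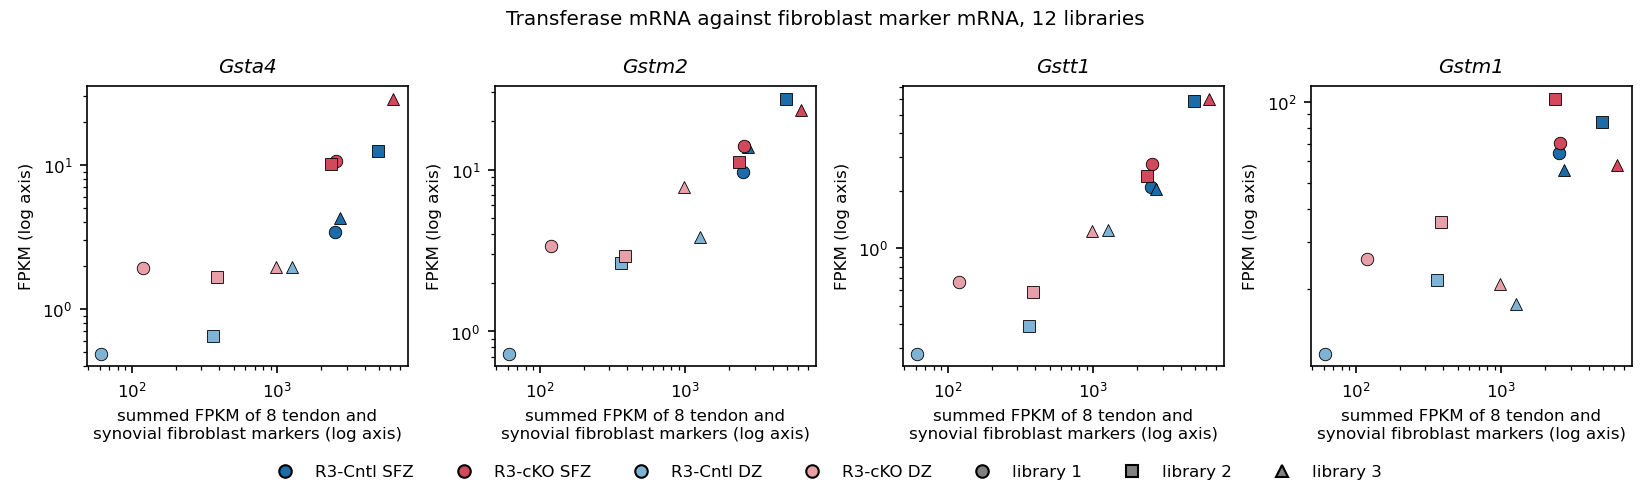
FPKM of Gsta4, Gstm2, Gstt1 and Gstm1 against the summed FPKM of 8 tendon and synovial fibroblast markers in each of 12 libraries, both on log axes. Colour gives zone and genotype and shape the library number. Over the 6 SFZ libraries r is 0.91 for Gstm2, 0.95 for Gstt1 and -0.23 for Gstm1, and the first 2 rest on R3-Cntl library 2 and R3-cKO library 3, the rightmost points, without which r is 0.57 and -0.34.

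Other genes of glutathione and peroxide metabolism were read from lists, and their counts stand against 18.9% lower and 4.3% higher of all genes tested. Of the other cytosolic transferases, 11 of 16 were tested between zones, and 2 were lower in DZ cells, Gstm7 at -0.94 (adjusted p = 0.0082) and Gstp2 at -0.78 (adjusted p = 0.0286). Gstm7 passed the filter only through its SFZ libraries, since no DZ library exceeded 0.41 FPKM. The median of that list was 0.14, against -0.14 for all genes. Gstp2 averaged 3.33 FPKM in SFZ and 1.54 FPKM in DZ libraries and shares sequence with the far more abundant Gstp1, so its change carries the uncertainty given above. It was not called under either other scaling. Among the 7 mu class genes in the table, Gstm4 averaged 8.14 FPKM in SFZ and 9.20 FPKM in DZ libraries, and Gstm4, Gstm5 and Gstm6 were tested and not called. Without the 2 SFZ libraries, where 808 of 11550 genes were called lower, 0 of 10 tested genes of that list were called and Gstp2 was still at -0.78 (adjusted p = 0.0863).

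Microsomal transferases, the membrane-bound family, were divided. Of the 5 tested of 6, 3 were lower and 1 was higher in DZ cells, against 18.9% and 4.3% of all genes. The list median of -1.40 is the value of Ptges, 1 of the 3, which passed the filter only through the SFZ. Of the lower genes, Mgst1 and Mgst3 reached 1 FPKM in 3 or more DZ libraries. Mgst1 averaged 9.26 ± 5.43 FPKM (SD, n = 6) in SFZ and 1.24 ± 0.888 FPKM (SD, n = 6) in DZ libraries, a log2 fold change of -2.12 (adjusted p = 0.00267). Mgst3 was at -1.43 (adjusted p = 0.00255), and Ptges, which makes prostaglandin E, at -1.40 (adjusted p = 0.00625), although Ptges reached 1 FPKM in only 2 DZ libraries and passed the filter through the SFZ. Mgst2 ran the other way, at 1.17 (adjusted p = 0.00598). These 4 calls held with quantile normalization, median-of-ratios size factors and without the 2 SFZ libraries named above.

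None of the 3 other glutathione peroxidases tested passed, and their median was -0.18. Of 22 tested genes of glutathione synthesis, turnover and reduction, 3 were lower in DZ cells, a count near the 18.9% of all genes: Ggt7 at -1.32 (adjusted p = 0.00831), which passed the filter only through its SFZ libraries, Gclm, the regulatory subunit of the enzyme that limits glutathione synthesis, at -0.71 (adjusted p = 0.0288) and Chac2, which degrades glutathione, at -0.50 (adjusted p = 0.00929). Their list median was -0.10. With quantile normalization 1 of the list was lower and 2 were higher, and with median-of-ratios size factors 2 were lower and 4 higher, while the split of the whole table moved as given above. With the library number as a block, 7 were lower and 5 higher, against 3165 and 800 of all genes, but the numbers paired the libraries between zones in R3-cKO mice only. Without the 2 SFZ libraries Chac2 was called, and Ggt7 at -1.10 (adjusted p = 0.0545) and Gclm at -0.79 (adjusted p = 0.0542) were not. Of 16 other peroxide and superoxide enzymes, 3 were lower, again near 18.9%, Sod3, the extracellular superoxide dismutase, at -2.17 (adjusted p = 0.0230) and the peroxiredoxins Prdx4 at -0.48 (adjusted p = 0.0129) and Prdx1 at -0.42 (adjusted p = 0.0144), with a list median of -0.14. Without the 2 SFZ libraries 0 of these 16 were called, and these 3 were at -1.96 for Sod3 (adjusted p = 0.112), -0.46 for Prdx4 (0.0548) and -0.45 for Prdx1 (0.0543). With median-of-ratios size factors Prdx1 was at -0.25 and not called (adjusted p = 0.0826).

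Of 14 tested genes of the Nrf2 pathway, 4 were lower in DZ cells and 0 higher, against 18.9% and 4.3% of all genes, with a median of -0.22. Nfe2l2 averaged 57.2 ± 4.71 FPKM (SD, n = 6) in SFZ and 43.2 ± 7.70 FPKM (SD, n = 6) in DZ libraries, a log2 fold change of -0.41 (SE 0.11, adjusted p = 0.0235), and it was not called with median-of-ratios size factors (-0.25, adjusted p = 0.102) or without the 2 SFZ libraries (-0.43, adjusted p = 0.0804). Akr1b8, an aldo-keto reductase, was at -1.10 (adjusted p = 0.0430), Aldh3a1, an aldehyde dehydrogenase, at -0.93 (adjusted p = 0.00676), and Bach1, a repressor at Nrf2 sites, at -0.43 (adjusted p = 0.0361). Akr1b8 was not called with quantile normalization (-0.89, adjusted p = 0.0821), with median-of-ratios size factors (-0.96, 0.0789) or without the 2 SFZ libraries (-1.09, 0.118). Nor was Bach1, at -0.20 (adjusted p = 0.279), -0.30 (0.124) and -0.31 (0.177) under the same settings. Aldh3a1 passed the filter only through its SFZ libraries, since no DZ library exceeded 0.66 FPKM. Keap1 did not pass, at -0.13 (adjusted p = 0.152). Nfe2l2 was at -0.01 and Keap1 at 0.10 between genotypes in DZ cells (adjusted p = 0.999 for both).

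Selenop, the selenium carrier of plasma, was the gene of these lists with the largest change, from 25.1 ± 22.8 FPKM (SD, n = 6) in SFZ to 2.37 ± 1.18 FPKM (SD, n = 6) in DZ libraries. Its log2 fold change was -2.65 (SE 0.46, adjusted p = 0.00364), and it was the 1 gene called among 13 tested genes of selenoprotein synthesis and selenium supply, below the share of lower genes in the whole table, while 3 were called with the block. Without the 2 SFZ libraries Selenop was at -2.01 (adjusted p = 0.00541). The median of that list was -0.06.

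**Figure D5:**
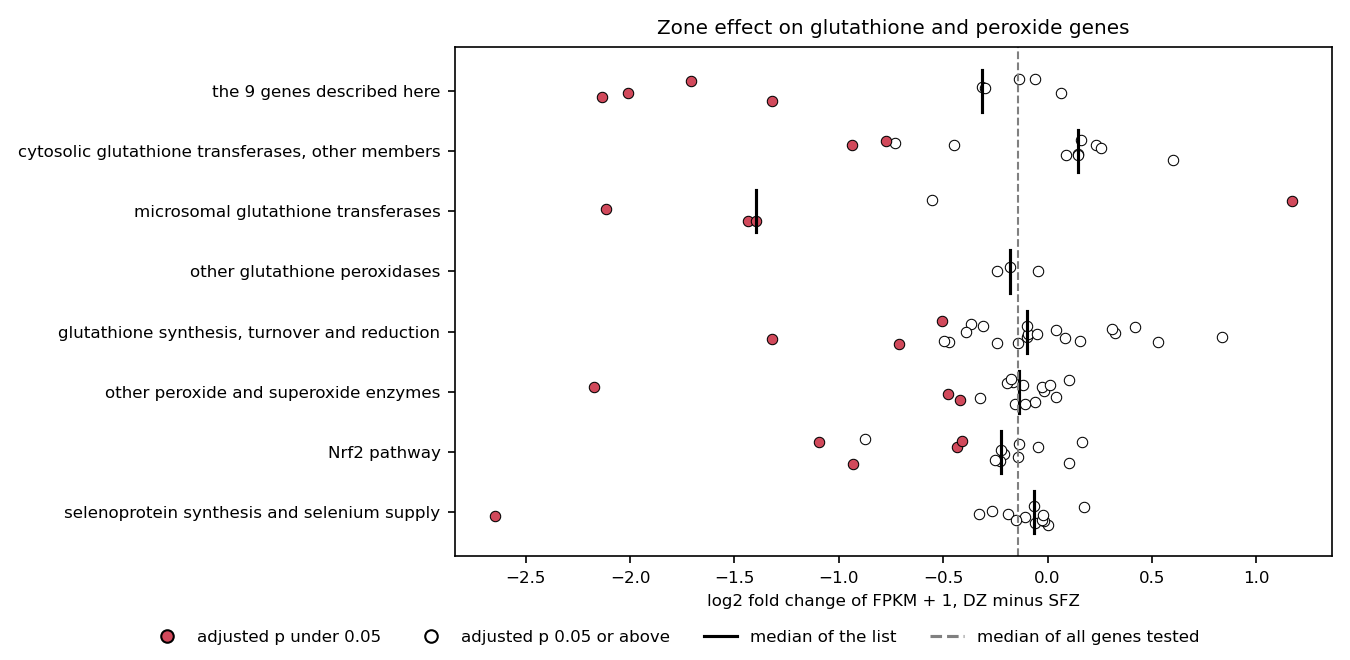
Log2 fold change from SFZ to DZ of every tested gene of the 9 described and of 7 lists of glutathione and peroxide genes. Filled points passed an adjusted p under 0.05, solid lines are list medians and the dashed line is the median of all genes tested, -0.14. The microsomal transferases have the lowest list median, -1.40, which is the value of Ptges, a gene that passed the filter only through the SFZ. Selenop is the lowest point, at -2.65.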

How the data were processed

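RNA was sequenced on a BGIseq-500 as 100-bp paired-end reads, which the authors mapped to mm9; the processing notes name Bowtie 0.12.2 without its role, and the counting tool is not given in the sources used here. The authors deposited 1 value per gene and library, labelled by them as TMM-normalized. That the values the authors normalized and deposited are FPKM, on a linear scale, was inferred from how they step with transcript length. Values were analysed as log2(FPKM + 1) with limma 3.58.1 in R 4.3.3, with empirical Bayes moderation, a mean-variance trend and Benjamini-Hochberg adjustment over all genes that reached 1 FPKM in 3 or more libraries of the comparison. The fit of both genotypes had zone and genotype as terms. Single genes were also tested by exact permutation. The fit was tested on simulated data. Sequences, levels and correlations were handled in Python (3.11.15; NumPy 2.4.6, pandas 2.3.3). All value columns were mapped to libraries. Named genes were the 9 described, Runx3, Prg4, Col2a1, Nfe2l2, Keap1, up to 4 called genes per list with the largest zone change, and the genes with the highest r. The genes and lists were chosen with earlier results of these data known. Annotation columns were not used.

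Whether equal library numbers belong together was checked by correlating deviations from group means over 11359 genes. The same-number values were 0.653, 0.781 and 0.687 between genotypes in the DZ and 0.418, 0.781 and 0.653 between zones in R3-cKO mice, so these were paired. They were 0.787, -0.0944 and -0.415 between genotypes in the SFZ and 0.575, 0.111 and -0.151 between zones in R3-Cntl mice. Alternatives were other pseudocounts (0.1 and 5), filters and scalings, the library number as a block, a fit without the trend, all 12 libraries in 1 model and each library left out. Protein sequences were not used here.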

Additional observations from a re-analysis of the deposited data

How the results depend on the processing

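Of the 9 genes, Gstm1 and Gstm2 were called between zones over both genotypes under the other pseudocounts and scalings and the block. They were also called in the fit without the trend and the fit without a filter. So were Gsta4, chosen by its SFZ values, and Gstt1, which passed the main filter only through the SFZ. Both are set apart here too and are no support for a zone effect of the group. Without R3-cKO SFZ library 3, Gstp1 was called as well. Requiring a mean of 10 FPKM or more left 2 called, Gstm1 and Gstm2, since Gsta4 and Gstt1 did not pass that filter. The count of called genes in the whole table was 1162 with that filter, 1624 to 2899 when each library was left out in turn, 986 without R3-Cntl SFZ library 2 and R3-cKO SFZ library 3, and 1276 with only the libraries that hold Y-linked transcripts. Of the fits that leave out 1 library, the lowest count, 1624, came without R3-Cntl SFZ library 2.

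In R3-Cntl cells the zone effect called 140 genes. It called 0 without a filter, 8 with that mean, 88 and 29 with pseudocounts of 0.1 and 5, 1 with quantile normalization, 17 with median-of-ratios size factors, 831 with the replicate block, 798 with all 12 libraries in 1 model and 0 to 505 with a library left out. Of the 8 tested genes described here, 0 were called without a filter, with that mean and with either other scaling, 2 with the replicate block or all 12 libraries, Gstm1 and Gstm2, and 0 to 2 with a library left out. In R3-cKO cells 2 genes were called. The count was 7 without a filter, 0 with that mean, 1 with either pseudocount, 352 with the replicate block, 165 with all 12 libraries and 0 to 5 with a library left out. Of the genes described here, 3 were called with the block, among them Gstt1, which passed the filter only through the SFZ, and 1 with all 12 libraries. The block changed no other call of the 9 genes apart from those given in the report and Gstm2 in R3-Cntl cells (adjusted p = 0.0305), where the numbers did not pair the libraries.

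Several estimates changed sign. Between zones over both genotypes, Gstm5 was 0.035 with quantile normalization, 0.10 with median-of-ratios size factors, 0.12 without the 2 SFZ libraries, 0.056 with only the libraries holding Y-linked transcripts and -0.17 to 0.10 with a library left out. Gpx1 was 0.027 with median-of-ratios size factors, and Gpx3 was 0.70 without the 2 SFZ libraries and ran from -0.28 to 0.60 with a library left out. In R3-Cntl cells Gsto1 was 0.10 with median-of-ratios size factors, and with a library left out it ran from -0.52 to 0.42 and Gstm5 from -0.034 to 0.25. In R3-cKO cells the ranges were -0.022 to 0.23 for Gpx1, -0.31 to 0.046 for Gstp1, -0.55 to 0.029 for Gstm5 and -1.27 to 0.71 for Gpx3. Between genotypes in the DZ they were -0.67 to 0.015 for Gpx3 and -0.42 to 0.00067 for Gstm5. Gsto1, at -0.52 with all DZ libraries, was 0.31 with only the libraries holding Y-linked transcripts. That fit leaves R3-cKO DZ library 1 alone in its group, so its value is a description only. The cause was not tested.

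The replicates number 3 a group, reads were not used, and Gstt1 and Gsta4 in the DZ rest on few fragments. The alternatives without 2 libraries and by Y-linked transcripts were chosen after seeing the data.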
